A study of Ovis aries with 16 samples.

Results

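The erythroid miRNAs described here are the mature products of the miR-144 and miR-451a locus and of the miR-486 gene, chosen by name from a count table of serum and serum extracellular vesicles (EVs) of sheep: miR-451a, miR-144-3p, miR-144-5p, miR-486-5p and miR-486-3p. All 5 were listed among the 1105 names of the table, of which 1075 were miRNA names and 30 piRNA names. All 5 had counts above 0 in all 16 libraries. The locus products and the miR-486 arms had unlike fitted values in the same libraries, with wide intervals. In serum after against before surgery, miR-451a, miR-144-3p and miR-144-5p had fitted log2 fold changes of −2.49, −1.89 and −1.87. Those of miR-486-5p and miR-486-3p were −0.10 and −0.15. Under library totals the last pair turned to 0.07 and 0.02, where the median of all names was −0.88. None of these passed adjustment over all names. The ratio of miR-486-5p over miR-451a, which sets them directly against each other, overlapped between the 2 serum groups (exact permutation p = 0.0714, adjusted p = 0.6).

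The study followed adolescent sheep (Ovis aries) with a normal 2-ventricle heart that were given a single-stage Fontan, an operation that leads systemic venous blood to the lungs without a pumping ventricle. The libraries fall into EVs after surgery (3 libraries, animal D on day 6 and animals E and F on day 7), EVs before surgery (5 libraries, animals A to E), serum after surgery (3 libraries, the same animals and days) and serum before surgery (5 libraries, animals A to E), with animals read from the letters in the titles. EVs were the 70 to 1000 nm fraction of a size-exclusion column, and the labels give that same preparation text for the serum libraries. Animals D and E alone have libraries at both times, and no sham-operated group was analysed here, so that surgery and time since the first sample cannot be told apart.

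Red cell precursors transcribe miR-144 and miR-451a as 1 primary transcript under the erythroid factor GATA1, as shown in mouse and zebrafish, and miR-451a is cut by Argonaute2 in place of Dicer. miR-486 comes from an intron of the ankyrin gene ANK1 in human and mouse, a gene used in red cells and in skeletal and cardiac muscle, and miR-486-5p is among the most abundant miRNAs of mature red cells. Because red cells carry these miRNAs into the blood sample and release them when they break, miR-451a, often set against miR-23a-3p, serves as a sign of red cell content or lysis in human serum and plasma.

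Library totals ran from 65537 to 639207 counts, and 375 of the 1105 names were above 0 in all 16 libraries. Factors by the trimmed mean of M-values (TMM, a scaling that assumes most names do not differ) were 0.716 to 2.94 in the 8 EV libraries and 0.278 to 0.757 in 7 serum libraries. Serum of animal D before surgery stood apart from the other serum libraries, with a factor of 2.69 and the lowest serum total, 76988 counts. EVs of animal C before surgery stood apart from the other EV libraries in 3 of the 5 erythroid miRNAs, as given below. A share of counts is relative to all other small RNAs in the tube. A lower share therefore cannot be told from a rise in other small RNAs. Nor can fewer red cells be told from less RNA per cell here. Wilson 95% intervals of single-library shares cover counting error only.

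miR-451a, the most abundant product of the locus, took 0.852%, 0.571% and 0.235% of counts in EVs of animals D, E and F after surgery. In EVs before surgery it took 0.169%, 0.179%, 4.51%, 1.08% and 0.274% in animals A to E. Animal C was 26.6 times the lowest EV library before surgery, with 25620 counts and a Wilson interval of 4.46% to 4.57%. In serum after surgery it took 0.145%, 0.198% and 0.229% in animals D, E and F, and in serum before surgery 0.168%, 1.07%, 1.88%, 1.18% and 0.251% in animals A to E. All 3 serum libraries after surgery lay below animals B, C, D and E before surgery, and overlapped with animal A. By group medians the order was serum before surgery (1.07%), EVs after surgery (0.571%), EVs before surgery (0.274%) and serum after surgery (0.198%), with overlapping ranges between each neighbouring pair.

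miR-144-5p, the arm of the miR-144 hairpin opposite to miR-144-3p, took 0.0293%, 0.0150% and 0.0226% in EVs of animals D, E and F after surgery. In EVs before surgery it took 0.0354%, 0.00916%, 0.0798%, 0.0889% and 0.0351% in animals A to E. Animals C and D were the highest in EVs before surgery, and the 2 EV groups overlapped. In serum it took 0.00811%, 0.00962% and 0.00725% after surgery in animals D, E and F, against 0.0146%, 0.0271%, 0.0415%, 0.0857% and 0.0167% before surgery in animals A to E. The 2 serum groups did not overlap in miR-144-5p, on counts of 17 to 42 after surgery and 23 to 265 before it. The Wilson intervals of animal E after surgery and animal A before it did overlap.

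miR-144-3p, the arm for which most targets of miR-144 have been described, took 0.0173%, 0.00875% and 0.0711% in EVs of animals D, E and F after surgery. In EVs before surgery it took 0.00737%, 0.0641%, 0.147%, 0.0690% and 0.0187% in animals A to E, and these ranges overlapped. In serum after surgery it took 0.00657%, 0.00226% and 0.00801% in animals D, E and F. In serum before surgery it took 0.0158%, 0.00904%, 0.0374%, 0.0649% and 0.00770% in animals A to E, so that animals D and F after surgery lay close to animals B and E before it. Counts were 4 to 832, and the lowest, 4 counts in serum of animal E after surgery, had a Wilson interval of 0.000880% to 0.00582%.

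miR-486-5p took 16.1%, 10.1% and 10.5% of counts in EVs of animals D, E and F after surgery. In EVs before surgery it took 7.59%, 9.74%, 31.5%, 10.7% and 8.76% in animals A to E, where animal C was again the highest and the other 4 lay within the span of 7.59% to 10.7%. In serum after surgery it took 19.2%, 28.8% and 35.5% in animals D, E and F, and in serum before surgery 24.1%, 35.3%, 36.1%, 9.43% and 27.2% in animals A to E. Serum of animal D before surgery was at the level of the EV libraries. miR-486-5p was the most abundant name in all 5 serum libraries before surgery, ranked 1 or 2 in serum after surgery and in EVs before surgery, and 2 or 3 in EVs after surgery.

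miR-486-3p, the less abundant arm of the same hairpin, took 0.673%, 0.362% and 0.379% in EVs of animals D, E and F after surgery. Before surgery it took, in EVs of animals A to E, 0.227%, 0.301%, 1.06%, 0.374% and 0.232%. In serum it took 0.627%, 0.814% and 1.02% after surgery in animals D, E and F, and 0.672%, 0.99%, 1.19%, 0.370% and 0.829% before surgery in animals A to E. The high EV library of animal C and the low serum library of animal D were the same as for miR-486-5p.

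**Figure D1:**
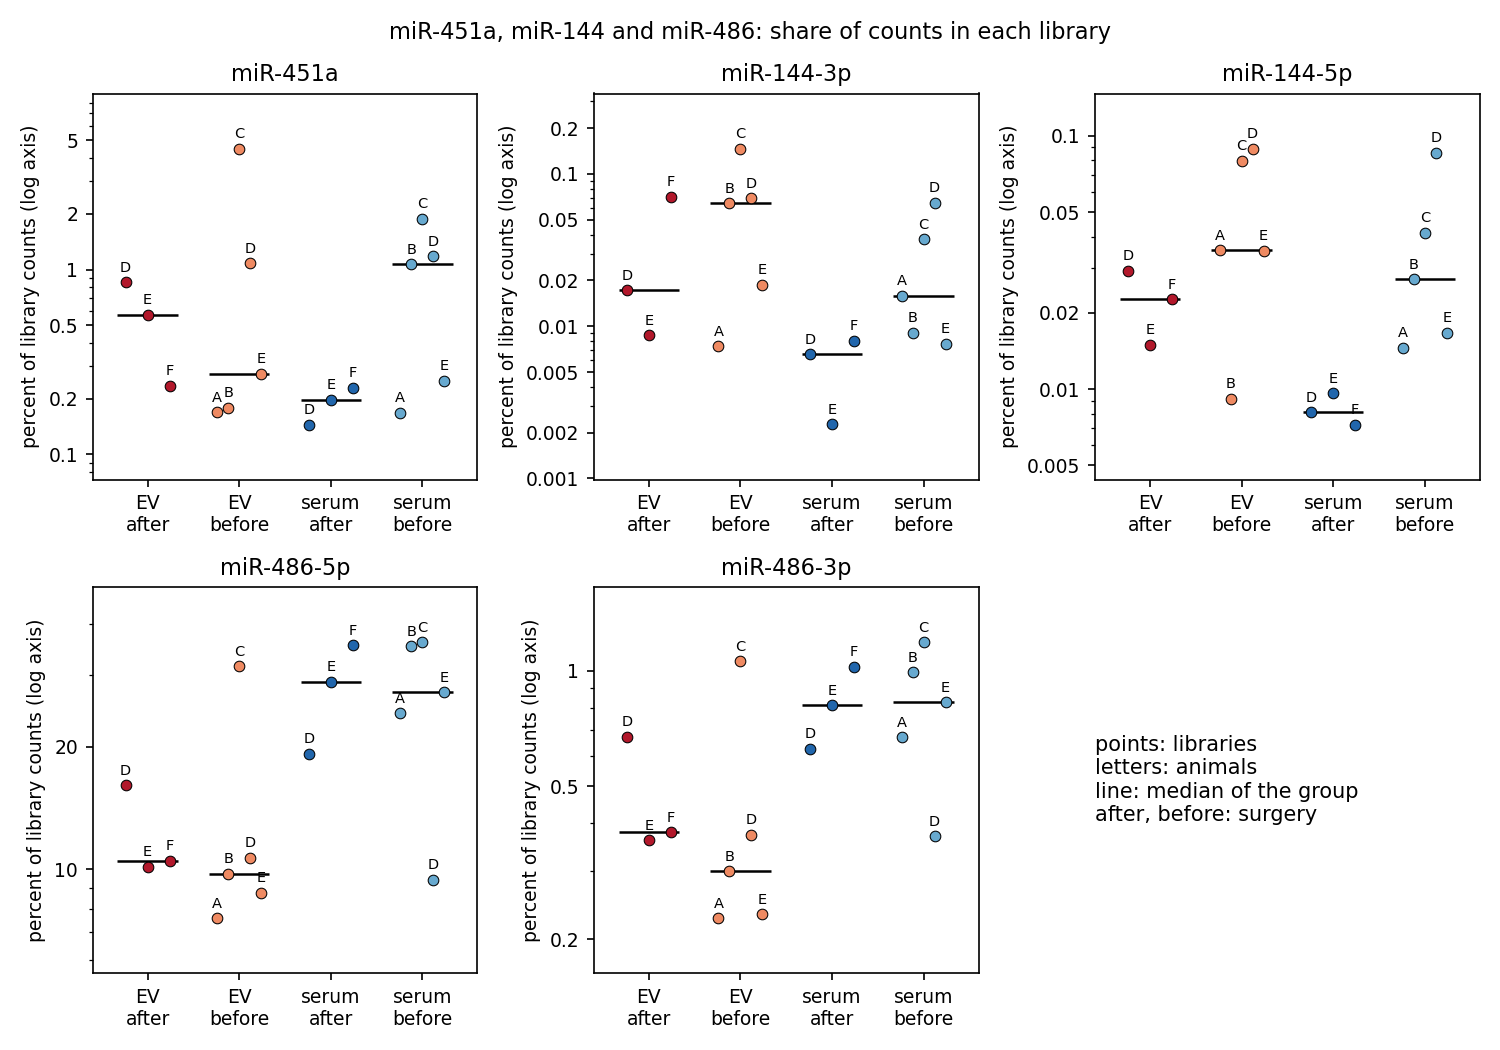
Percent of library counts (log axis) of each of the 5 miRNAs in the 16 libraries; points are libraries, letters are animals and lines are group medians. miR-451a and both miR-144 arms were low in the 3 serum libraries after surgery, and both miR-486 arms were low in most EV libraries, with animal C before surgery the highest EV library for miR-451a (4.51%) and miR-486-5p (31.5%).

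Whether the erythroid miRNAs differed in serum after surgery was tested with edgeR's quasi-likelihood test on the 8 serum libraries, with p-values adjusted by Benjamini-Hochberg over the 696 names tested. The log2 fold change after over before surgery was −2.49 for miR-451a (SE 1.16, 95% interval −4.97 to 0.0013, unadjusted p = 0.0501, adjusted p = 0.634 by edgeR). It was −1.87 for miR-144-5p (SE 0.716, interval −3.41 to −0.34, unadjusted p = 0.0204, adjusted p = 0.581) and −1.89 for miR-144-3p (SE 0.855, interval −3.72 to −0.06, unadjusted p = 0.0440, adjusted p = 0.626). For miR-486-5p it was −0.10 (SE 0.996, interval −2.24 to 2.03, adjusted p = 0.969) and for miR-486-3p −0.15 (SE 0.912, adjusted p = 0.968), and under library totals without TMM factors these became 0.07 and 0.02. With 0 of 5 called, against a background of 0% of names called, no erythroid miRNA was found to differ beyond the spread between animals. At an unadjusted p under 0.05 edgeR counted 2 of the 5 and 54 of the 696 names, and DESeq2 and limma-voom also called 0 names.

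In serum, then, the 3 locus products had values of the same sign and similar size, and the miR-486 arms had values near 0. The median over the 5 was −1.87, and over all 696 names −0.20. miR-144-5p was the 1 member of the 5 whose serum groups did not overlap, after surgery below before surgery, both by library share and by TMM-scaled values. By share the gap was within counting error. Animal E after surgery, with 17 counts, had a Wilson interval of 0.00600% to 0.0154%. Animal A before surgery, with 23 counts, had 0.00970% to 0.0218%. Of all names tested, 1.87% lay entirely below by share and 1.01% by TMM-scaled values. Serum of animal C before surgery carried part of the locus values: without it they were −1.36 for miR-451a, −0.90 for miR-144-3p and −1.23 for miR-144-5p, and miR-486-5p was 0.40. With serum of animal D before surgery left out they were −2.94, −2.17 and −2.16, and miR-486-5p was −0.59. With the animal as a block, which compares animals D and E within themselves, the 3 were −0.49, −1.28 and −0.91 and miR-486-5p was 1.75, and by limma-voom miR-451a was −1.33.

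Within the 2 animals sampled at both times, the log2 share of miR-451a in serum, after minus before surgery, was −3.03 in animal D (0.145% after, 1.18% before) and −0.34 in animal E (0.198% after, 0.251% before). miR-144-5p was lower after surgery in both animals, at −3.40 and −0.78, and miR-144-3p likewise, at −3.30 and −1.66. In animal E these rest on 17 counts after against 26 before for miR-144-5p, and on 4 against 12 for miR-144-3p. The Wilson intervals of animal E overlapped in both cases. The share of miR-486-5p was higher after surgery in both, by 1.03 log2 units in animal D and by 0.08 in animal E. Animal D's serum library before surgery was the one that stood apart, and its serum library after surgery had the lowest share of miR-451a of all 16. In the same serum libraries the reference miR-23a-3p was also lower after surgery. It took 0.119% after and 0.916% before in animal D, and 0.214% after and 0.323% before in animal E.

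In EVs, the libraries after and before surgery overlapped for all 5 miRNAs, by library share and by TMM-scaled values. The log2 fold change after over before surgery, from edgeR over 856 names, was −1.16 for miR-451a (SE 1.49, interval −4.47 to 2.14), −1.29 for miR-144-3p (SE 1.15), −0.86 for miR-144-5p (SE 0.940), 0.05 for miR-486-5p (SE 0.948) and 0.31 for miR-486-3p (SE 1.02), each with an adjusted p of 0.999. Of the 5, 0 were called, against 0% of all names. At an unadjusted p under 0.05 there were 0 of the 5 and 15 of the 856 names, and DESeq2 and limma-voom called 0 names. Animal C's EV library before surgery set the sign for miR-451a, which was 1.14 without it, and moved miR-486-5p to 1.30 and miR-486-3p to 1.63. Under library totals miR-486-5p was −0.16.

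EVs were then set against serum of the same time. Before surgery, miR-486-5p had a log2 fold change of EVs over serum of −2.13 (SE 1.09, interval −4.48 to 0.21, unadjusted p = 0.0715, adjusted p = 0.424 by edgeR over 768 names) and miR-486-3p −2.03 (SE 0.939, interval −4.05 to −0.01, unadjusted p = 0.0487, adjusted p = 0.356). The locus products were nearer to 0, at −0.47 for miR-451a (SE 1.25), 0.50 for miR-144-3p (SE 0.943) and −0.41 for miR-144-5p (SE 0.790), and under library totals miR-451a and miR-144-5p became 0.45 and 0.44, while miR-486-5p and miR-486-3p became −0.95 and −0.88. Of the 5, 0 were called, while 2.99% of all names were called, 21 of those 23 names upward. With the animal as a block 0 names were called, as against these 23. At an unadjusted p under 0.05 there were 1 of the 5 and 107 of the 768 names, and DESeq2 called 54 names and limma-voom 150, in each case with 0 of the 5 among them. Leaving out EVs of animal C gave the only call of an erythroid miRNA under any setting tried: miR-486-3p at −3.34 (adjusted p = 0.0440 by edgeR), with miR-486-5p at −3.38 (adjusted p = 0.163). In that fit miR-451a was −2.76, miR-144-5p −1.07 and miR-144-3p −0.69. Without serum of animal C, miR-451a was 0.76 and miR-144-5p 0.27, so that their sign rests on single libraries.

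After surgery, the values of EVs over serum were −1.95 for miR-486-5p (SE 0.891, interval −4.04 to 0.14, unadjusted p = 0.0637, adjusted p = 0.629 by edgeR over 747 names) and −1.54 for miR-486-3p (SE 0.774, adjusted p = 0.685). miR-451a had 0.89 (SE 0.857), miR-144-3p 1.12 (SE 0.995) and miR-144-5p 0.61 (SE 0.837). Of the 5, 0 were called, against 0% of all names. At an unadjusted p under 0.05 there were 0 of the 5 and 60 of the 747 names, and DESeq2 called 41 names and limma-voom 42, none of the 5 among them. With EVs of animal D left out, miR-451a and miR-144-5p turned to −0.14 and −0.28.

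By library share after surgery, all 3 EV libraries lay above all 3 serum libraries for miR-451a, miR-144-3p and miR-144-5p, and below them for miR-486-5p. For miR-451a the gap was within counting error, since animal F had 0.235% in EVs (Wilson interval 0.206% to 0.268%) and 0.229% in serum (0.211% to 0.248%). As many as 32% of all names tested lay entirely above in EVs by share, so that the 3 locus products stood among a large part of the table. Only 2.41% lay entirely below, with miR-486-5p among them. By TMM-scaled values 0 of the 5 lay entirely above, against 14.3% of names, and both miR-486 arms lay entirely below, against 7.63% of names.

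The plot of EVs minus serum within each animal gives these values pair by pair. After surgery the log2 share of miR-486-5p in EVs minus serum was −0.26, −1.51 and −1.76 in animals D, E and F. Before surgery it was −1.67, −1.86, −0.20, 0.18 and −1.64 in animals A to E, so that animal D was the exception. As a log2 ratio over miR-23a-3p, miR-486-5p was lower in EVs than in serum in 3 of 3 animals after surgery (−2.62 to −1.23), and before surgery it was between −2.19 and −0.69 in animals A, B, C and E. Animal D, at −0.10 before surgery with counting errors of 0.0274 in EVs and 0.0569 in serum, could not be told from 0 by counting error alone. For miR-451a, the log2 share in EVs minus serum was 2.55, 1.53 and 0.04 after surgery in animals D, E and F. Before surgery it was 0.02, −2.58, 1.26, −0.13 and 0.13 in animals A to E, with animal B far below the rest.

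**Figure D2:**
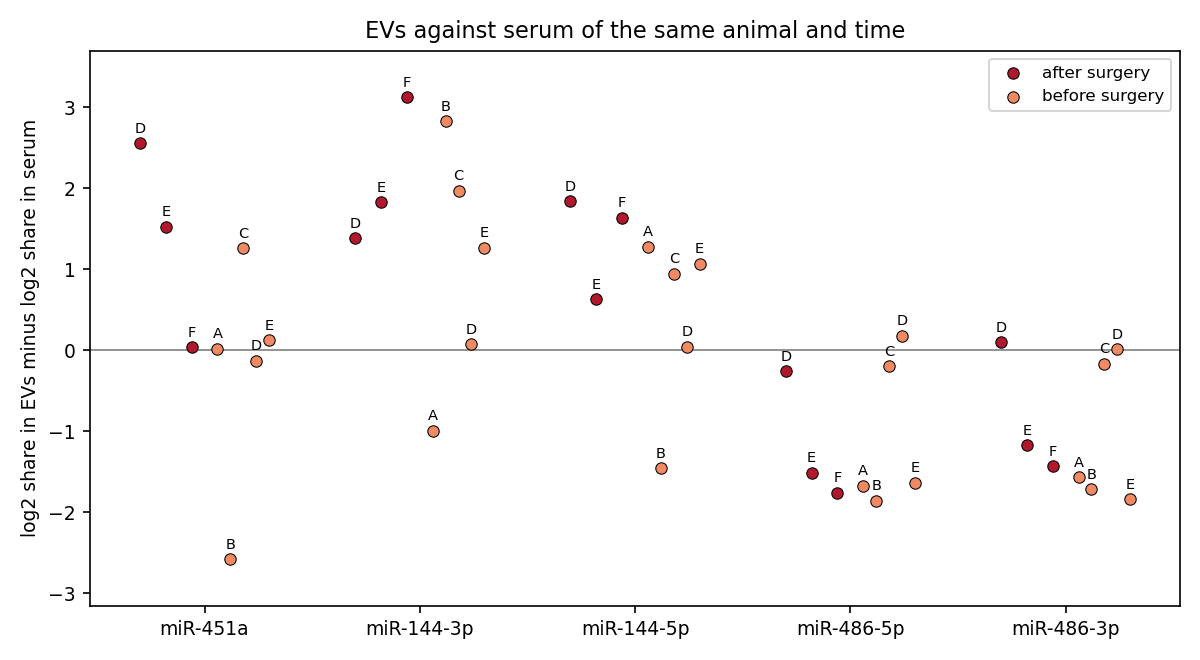
Log2 share of counts in EVs minus log2 share in serum of the same animal and time, for the 5 miRNAs; each point is 1 animal and letters name it. After surgery all 3 pairs were above 0 for miR-451a, miR-144-3p and miR-144-5p and below 0 for miR-486-5p, by library share.

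Whether the difference after surgery itself differed between EVs and serum was tested as an interaction over all 16 libraries. The log2 values were 1.47 for miR-451a (SE 1.91), 0.71 for miR-144-3p (SE 1.50), 1.11 for miR-144-5p (SE 1.26), 0.30 for miR-486-5p (SE 1.58) and 0.61 for miR-486-3p (SE 1.42), with adjusted p-values of 1.000 by edgeR. Of the 5, 0 were called, against 0% of 1018 names. At an unadjusted p under 0.05 there were 0 of the 5 and 85 names, and DESeq2 called 3 names and limma-voom 0. The 95% interval for miR-451a was −2.55 to 5.49. Without EVs of animal C before surgery miR-451a had 3.80 (unadjusted p = 0.0335, adjusted p = 0.620 by edgeR).

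**Figure D3:**
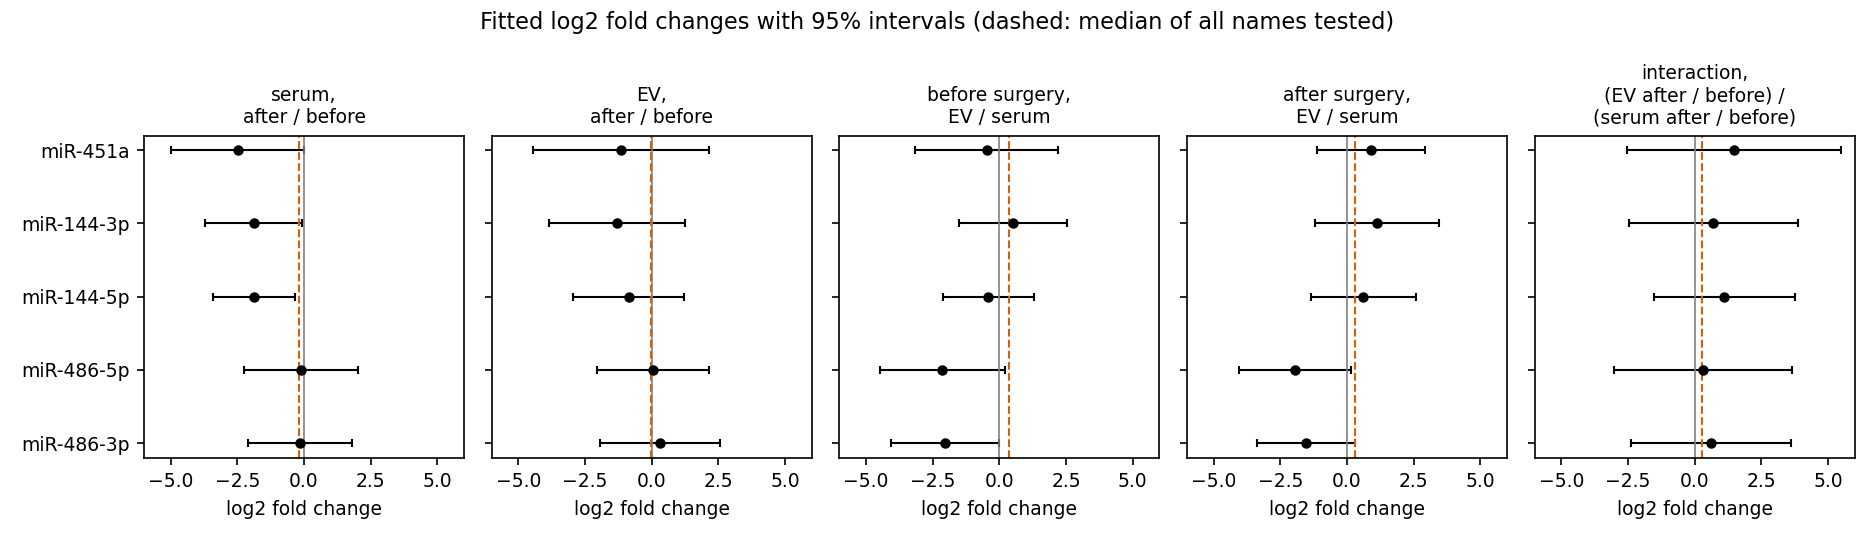
Fitted log2 fold changes (x axis) of the 5 miRNAs in the 5 comparisons, with 95% intervals from edgeR; the dashed line is the median of all names tested. The 3 locus products sat at −1.87 to −2.49 in serum after over before surgery and the miR-486 arms near −2 in EVs over serum before surgery; under library totals the miR-486 arms in serum and miR-451a and miR-144-5p in EVs over serum before surgery changed sign.

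Ratios within a library do not depend on how libraries are scaled, and they show where the members part. The log2 ratio of miR-486-5p over miR-451a was 4.24, 4.15 and 5.48 in EVs of animals D, E and F after surgery, and 5.48, 5.76, 2.80, 3.30 and 5.0 in EVs of animals A to E before surgery. In serum it was 7.05, 7.18 and 7.27 after surgery, and 7.17, 5.04, 4.26, 3.0 and 6.76 before surgery. The 3 serum libraries after surgery lay within 0.22 log2 units of each other, at the upper end of the 4.17 units spanned before surgery. Over all 16 libraries the ratio spanned 22.2-fold.

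The mean of this ratio in serum was 7.17 ± 0.113 after surgery (SD, n = 3) and 5.24 ± 1.74 before (SD, n = 5), a difference of 1.92 (2-sided exact permutation p = 0.0714, adjusted p = 0.6 over the 12 ratio tests, smallest p possible 0.0357). With animal D's serum before surgery left out, the difference was 1.36. In EVs over serum after surgery it was −2.55, with all 3 EV libraries below all 3 serum libraries and lower in EVs in 3 of 3 animals (exact permutation p = 0.1, the smallest that 3 against 3 allow, adjusted p = 0.6). In EVs after against before surgery the difference was 0.15 (exact permutation p = 0.893), and in EVs against serum before surgery −0.78 (exact permutation p = 0.437). None of the 4 passed adjustment.

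The lysis index, the log2 ratio of miR-451a over miR-23a-3p, was 1.50, 0.30 and 0.25 in EVs of animals D, E and F after surgery. EVs of animals A to E before surgery had −1.10, −0.42, 3.71, −0.04 and −0.80, with animal C far above the other 4. In serum it was 0.28, −0.11 and −0.32 after surgery and −0.67, 1.00, 3.05, 0.37 and −0.37 before surgery, again with animal C the highest. Animal C was thus high in both fractions drawn before surgery.

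The mean index in serum was −0.05 ± 0.305 after surgery (SD, n = 3) and 0.67 ± 1.48 before (SD, n = 5), a difference of −0.72 (exact permutation p = 0.5). In EVs it was 0.69 ± 0.709 after and 0.27 ± 1.96 before, a difference of 0.42 (exact permutation p = 0.75). Within the 2 animals sampled at both times the EV index, after minus before surgery, was 1.54 in animal D and 1.10 in animal E, a mean of 1.32. In serum it was −0.08 and 0.25. In EVs of animal D the log2 share of miR-451a was itself lower after surgery, at −0.34 after minus before. There miR-23a-3p took 1.108% before and 0.3002% after surgery. In EVs of animal E the log2 share of miR-451a was higher, at 1.06. The share of miR-23a-3p spanned 9.3-fold over all 16 libraries, so that the index also moves with its reference. Exact 2-sided sign-flip tests of 2 pairs cannot go below 0.5. For EVs minus serum the difference was 0.73 after surgery (exact permutation p = 0.2, smallest possible 0.1) and −0.40 before (exact permutation p = 0.635). After adjustment over the 12 ratio tests the smallest of these was 0.8. The labels give no reading of haemolysis to set beside the index.

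**Figure D4:**
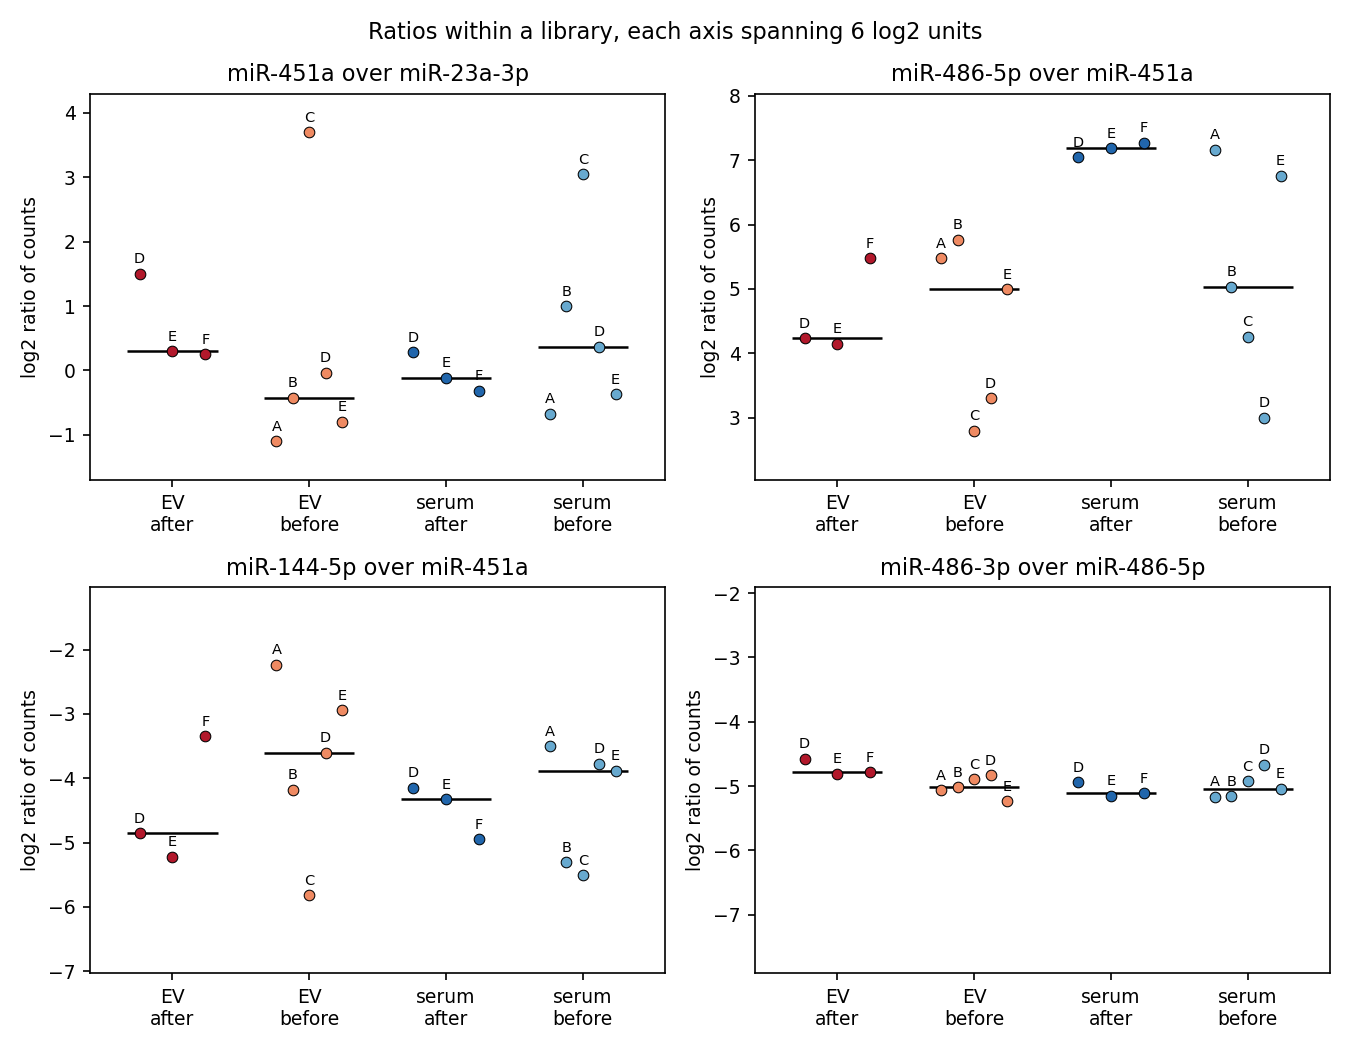
Log2 ratios of counts within each library for 4 pairs of miRNAs, each axis spanning 6 log2 units; points are libraries, letters animals, lines medians. miR-486-5p over miR-451a was 7.05 to 7.27 in serum after surgery and spread over 3.0 to 7.17 in serum before surgery, while miR-486-3p over miR-486-5p stayed within −5.24 to −4.58 in all 16 libraries.

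Products of 1 hairpin or 1 transcript were then compared with each other. The log2 ratio of miR-486-3p over miR-486-5p ran from −5.24 to −4.58 over the 16 libraries (SD 0.190), a span of 1.58-fold, while miR-486-5p itself spanned 4.75-fold by share. In EVs minus serum of the same animal after surgery this ratio was 0.36, 0.34 and 0.33 in animals D, E and F, with counting errors of 0.0782 or less in the EV libraries. Before surgery the same difference had no common sign, at 0.11, 0.14, 0.03, −0.16 and −0.20 in animals A to E. This arm ratio and the next were added after the data were seen and were not tested.

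The log2 ratio of miR-144-3p over miR-144-5p was far less steady, from −2.16 in EVs of animal A to 2.71 in EVs of animal B, both before surgery, a span of 29.1-fold. Those extremes rest on 5 and 24 counts in animal A and on 42 and 6 counts in animal B. In EVs of animal C before surgery, where the counts were 832 and 453, the ratio was 0.88, and in serum of that animal, with 239 and 265 counts, −0.15.

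The log2 ratio of miR-144-5p over miR-451a, 2 products of 1 transcript, was −4.86, −5.22 and −3.35 in EVs of animals D, E and F after surgery, and −2.24, −4.18, −5.82, −3.60 and −2.94 in EVs of animals A to E before surgery. In serum it was −4.14, −4.32 and −4.94 after surgery and −3.50, −5.30, −5.50, −3.77 and −3.88 before. The differences of means were −0.08 in serum after against before surgery (exact permutation p = 0.857) and −0.72 in EVs after against before surgery (exact permutation p = 0.464). Within animals D and E the ratio after minus before surgery was −1.25 and −2.28 in EVs, a mean of −1.77, and −0.37 and −0.44 in serum. In EVs against serum they were −0.0033 after surgery (exact permutation p = 1) and 0.64 before (exact permutation p = 0.421). In serum both products had lower shares after surgery in the 2 paired animals, for miR-144-5p in animal E with overlapping Wilson intervals. Their ratio there moved by less than the spread between animals.

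Agreement between members was measured over 6 animals with 1 library each per fraction, the one before surgery and for animal F the one after, as log2 CPM (counts scaled to the library total). In serum, miR-451a and miR-144-5p had Pearson's r = 0.814 (exact permutation p = 0.0514) and Spearman's rho = 0.886 (exact permutation p = 0.0333), and r was 0.857 without animals A and C, the 2 farthest from the median. Adjusted over the 9 relations computed, these p-values were 0.181 and 0.175. miR-451a and miR-486-5p in serum had r = −0.147 (exact permutation p = 0.924) and rho = 0.257, and r = −0.533 without animals A and C. With TMM-scaled values this r was 0.563, so that its sign rests on the scaling. miR-144-5p and miR-486-5p in serum had r = −0.644 (exact permutation p = 0.193) and rho = −0.200, and r turned to 0.939 without animals D and F.

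In EVs, miR-451a and miR-486-5p had r = 0.902 (exact permutation p = 0.0167, adjusted p = 0.15) and rho = 0.829 (exact permutation p = 0.0583), but r was 0.351 without animals C and D, so that the relation rests on those animals. miR-451a and miR-144-5p in EVs had r = 0.772 (exact permutation p = 0.0806) and rho = 0.600, and r = 0.380 without animals C and D. miR-144-5p and miR-486-5p in EVs had r = 0.477 (exact permutation p = 0.356) and rho = 0.429, and r = 0.823 without animals B and D. Between EVs and serum of the same animal, r was 0.742 for miR-451a (exact permutation p = 0.0625; −0.282 without animals C and D), 0.560 for miR-144-5p (exact permutation p = 0.256; 0.989 without animals B and D) and 0.262 for miR-486-5p (exact permutation p = 0.440; −0.406 without animals A and C). Spearman's rho for these was 0.829, 0.600 and 0.429. None of the 9 passed adjustment.

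**Figure D5:**
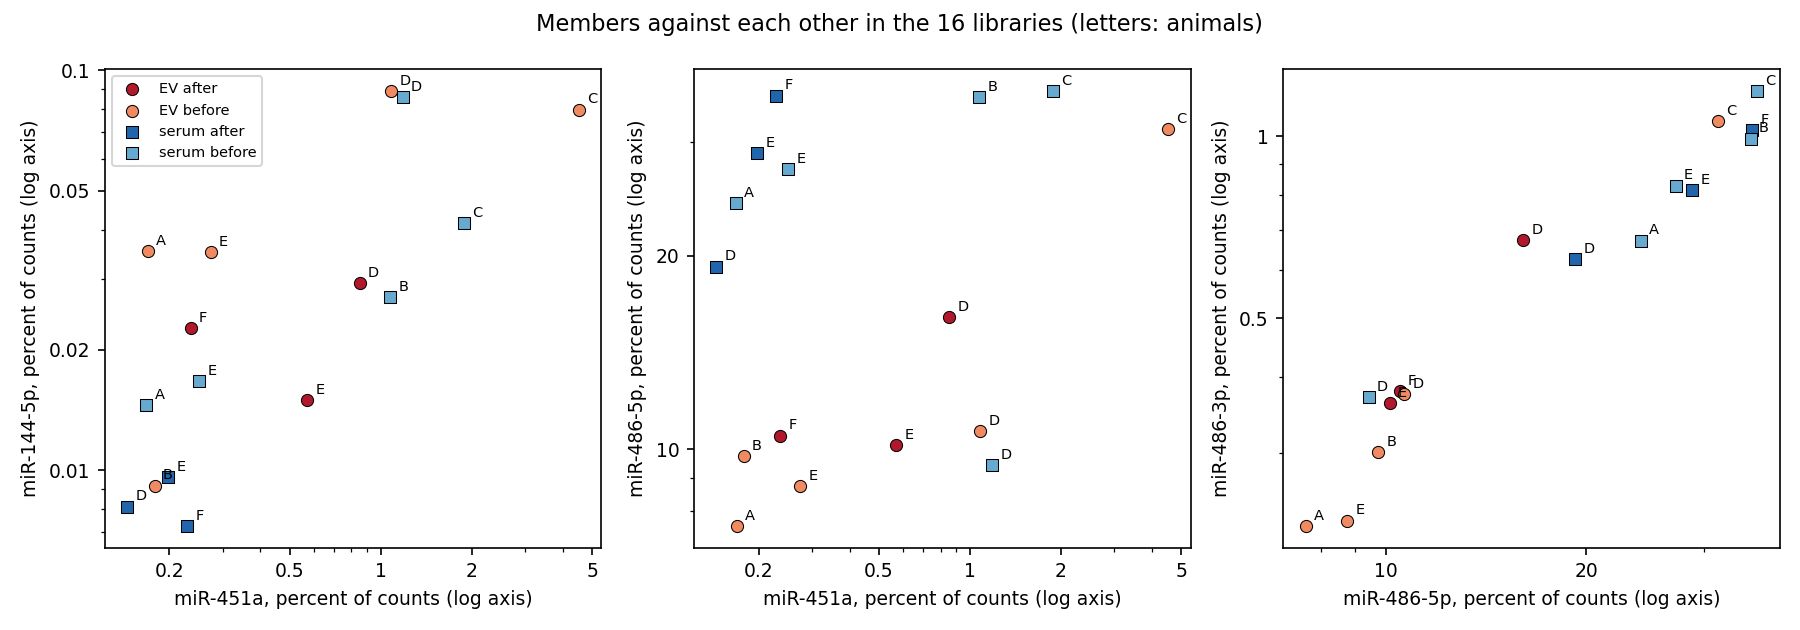
Percent of counts (log axes) of pairs of miRNAs in the 16 libraries; colours and shapes give the group and letters the animal. miR-486-3p followed miR-486-5p along 1 line through all groups, whereas at like miR-451a shares the serum libraries other than animal D before surgery held more miR-486-5p than most EV libraries.

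The names whose pattern was most like each member were ranked by Spearman's rho of TMM-scaled log2 CPM over the 16 libraries. The ranking was among 374 names above 0 in all 16 with a mean of at least 100 CPM. It is a description, since libraries of 1 animal and 1 fraction share their source. It also rests on the TMM scaling, which changed the sign of r for miR-451a with miR-486-5p in serum, as given above. No ranking by library share is given here. Nearest to miR-451a were miR-15b-5p (0.971), miR-23b-3p (0.900), miR-186-5p (0.882), miR-29a-3p (0.871) and miR-185-5p (0.847). Its locus partner miR-144-5p came 15th of 373 (0.809), miR-486-5p 55th (0.615) and miR-144-3p 74th (0.497). For miR-144-5p, miR-451a came 2nd (0.809), after miR-186-5p (0.815) and before miR-29c-3p, miR-185-5p and miR-15b-5p.

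Nearest to miR-486-5p were miR-486-3p (0.991), miR-92a-3p (0.965), miR-30d-5p and miR-92b-3p (0.891 each) and miR-484 (0.882), and miR-451a came 81st. For miR-486-3p the order began with miR-486-5p, miR-92a-3p (0.956), miR-484, miR-425-5p and miR-30d-5p. Nearest to miR-144-3p were miR-181a-5p (0.644), miR-6861-5p, miR-19a-3p, miR-27b-3p and miR-103b, with miR-451a 14th and miR-144-5p 15th. Of the 10 other red cell miRNAs listed, 6 had the higher rho with miR-451a (miR-15a-5p, miR-15b-5p, miR-185-5p, miR-22-3p, miR-107 and miR-106b-5p) and 4 with miR-486-5p (miR-16-5p, miR-92a-3p, miR-25-3p and miR-484). Some of the 6 were close or weak. With miR-451a against miR-486-5p, rho was 0.847 against 0.794 for miR-185-5p, 0.462 against 0.315 for miR-107 and 0.326 against 0.106 for miR-106b-5p.

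The other mature products of the human miR-144 and miR-451a locus were scarce. miR-451b had 0 to 53 counts and miR-4732-3p 0 to 36. After surgery miR-451b had 7, 0 and 0 counts in serum of animals D, E and F and miR-4732-3p 8, 0 and 0. In EVs over serum before surgery their log2 values were 1.09 (SE 1.23, adjusted p = 0.696 by edgeR) and 0.58 (SE 1.14, adjusted p = 0.823). In serum neither passed the filter on low counts.

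Among the 15 other red cell names of the list, 10 were listed, and 0 of 10 were called by edgeR in any of the 5 comparisons. Of all names, 2.99% were called in EVs over serum before surgery and 0% in each other comparison. In serum after over before surgery all 10 had negative log2 values, with a median of −0.67 against −0.20 over all names. Of all names in that comparison, 41.7% had positive values. Among the 6 names nearer to miR-451a in pattern, the values were −1.87 for miR-185-5p, −1.56 for miR-15b-5p, −1.43 for miR-15a-5p, −0.59 for miR-107, −0.23 for miR-106b-5p and −0.18 for miR-22-3p. Among the 4 nearer to miR-486-5p they were −1.44 for miR-25-3p, −0.76 for miR-16-5p, −0.40 for miR-484 and −0.28 for miR-92a-3p. The 2 sets thus overlapped, SEs were 0.582 to 1.09, and adjusted p-values by edgeR were 0.857 to 0.968. The nearness was itself read from these libraries. In EVs over serum before surgery 8 of 10 were negative (median −0.69), while over all names the median was 0.35 and 62.9% were positive. Among the 10, miR-92a-3p was at −2.37 (SE 0.80, adjusted p = 0.183 by edgeR). The summed share of the 10 was 4.31% to 18.8% in EVs after surgery and 8.73% to 22.5% in EVs before surgery. In serum it was 4.99% to 15.7% after surgery and 11.4% to 30.2% before surgery.

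Of the names of other sources, 0 were called by edgeR in any of the 5 comparisons, where 0% to 2.99% of all names were called. The summed share of 6 platelet names was 0.604% to 1.31% in serum after surgery and 1.76% to 2.49% in serum before surgery, and all 6 had negative log2 values there (median −0.89, with 0 of 6 at an unadjusted p under 0.05). The 4 lysis reference names, miR-23a-3p among them, took 0.185% to 0.511% in serum after surgery and 0.421% to 1.39% before. All 4 had negative log2 values (median −0.58, with 0 of 4 at an unadjusted p under 0.05). Over all names in serum the median was −0.20 and 41.7% were positive. The 6 muscle names found in the table, of interest because muscle also uses miR-486, took 0.0545% to 0.195% in serum after surgery and 0.0494% to 0.157% before, and 0.0797% to 0.207% in EVs after surgery and 0.116% to 0.171% before. The 5 myeloid names took 0.731% to 1.97% in serum after surgery and 0.651% to 3.56% before, and the 4 liver names 2.52% to 6.96% after and 0.780% to 7.34% before. In EVs the liver names took 15.1%, 19.8% and 1.37% after surgery in animals D, E and F, against 1.24%, 3.91%, 1.15%, 3.44% and 9.74% before surgery in animals A to E. For miR-122-5p, a miRNA of hepatocytes, the fitted EV value after over before surgery was 3.32 on the log2 scale (SE 1.23, unadjusted p = 0.0213, adjusted p = 0.999 by edgeR). The part of these sources in the erythroid values was not tested.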

How the data were processed

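Small RNAs of 16 libraries were read from 1 deposited table of whole-number counts per human miRNA or piRNA name. Per the labels' protocols, serum was spun, loaded on a column that collects 70 to 1000 nm particles, and 1 ng of RNA entered a QIAseq miRNA library. Per the submitters' processing notes, the genome build was hg19, a human one, and bcl2fastq 2.20.0.422 was run. How reads were aligned and counted, and whether molecular identifiers were collapsed, is not given in the labels. The names were not checked against sheep sequence, and no sequences are shown because none of these miRNAs was in the reference used. Near-identical family members could share reads.

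Each comparison was fitted on the groups compared (the interaction on all 16 libraries) with edgeR 4.0.16 in R 4.3.3, using TMM factors, the quasi-likelihood test, a filter by filterByExpr (minimum count 10) and Benjamini-Hochberg adjustment at 0.05 over all names kept. All 5 erythroid miRNAs passed that filter in all 5 comparisons. Log2 ratios used counts plus 0.5 and 2-sided exact permutation tests (scipy 1.17.1), adjusted over 12. Correlations had exact permutation p-values, adjusted over 9. The script of the fits was checked on simulated counts with known changes, with a pass required only at a small spread between libraries. How many changes would be found at the spread of these libraries is not given here.

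Groups and animals came from the titles. Libraries with the same letter were read as 1 animal, so that the letters pair them by source, and the fit with the animal as a block is an alternative. The labels do not say how samples were drawn, so p-values measure the spread between these libraries, which may in part be technical. Alternatives were DESeq2 1.42.0, limma-voom (limma 3.58.1), RLE factors, library totals, factors and totals without the 5 miRNAs, no filter, a minimum count of 50, 1 fit of all libraries, the animal block, leaving out each library, and thinning every library to 65537 counts. Fits of names above 0 in every compared library, and the arm ratios, were added after seeing the data. The miRNAs and the lists (red cell, miR-144 and miR-451a locus, muscle, platelet, myeloid, liver, lysis reference) were chosen with earlier results of these data known.

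Named besides the 5 were miR-451b and miR-4732-3p, miR-23a-3p, the 6 most abundant other red cell names and, for each of the 5, the 5 names of nearest pattern, with miR-122-5p from the liver list. The remaining 4 red cell names were named after their values were seen.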

Additional observations from a re-analysis of the deposited data

Results flagged for a closer look

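In EVs before surgery, animal C lay apart from animals A, B, D and E by Dixon's test at 95%. This held in 4 of the 20 groups of values tested this way. All 4 were linked values of 1 library, so that they cannot be set against a chance rate of about 1 in 20. The miR-486 arms ran together (rho 0.991 over all libraries), and miR-451a is part of its own ratio. miR-451a took 4.514% of counts in that library, miR-486-5p 31.46% and miR-486-3p 1.059%, and the log2 ratio of miR-451a over miR-23a-3p was 3.705. The gap to the nearest library was 0.790, 0.871, 0.823 and 0.779 of the whole range in that order. Shares were tested as percents. As log2 percent, miR-451a was 2.17 in animal C, 0.11 in animal D and −2.56 in animal A, so that animal C stood less apart on that scale. The library had 567514 counts, the highest total of the EV libraries, and serum of the same animal before surgery had 639207, the highest of the 16. The other red cell names summed to 22.5% of counts in this EV library and to 30.2% in that serum library, each the highest of its group. The part of depth or of red cell content in these values was not tested.

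The log2 ratio of miR-486-3p over miR-486-5p, after minus before surgery, was 0.26 and 0.43 in EVs of animals D and E and −0.27 and −0.11 in their serum. The mean difference of EVs minus serum was 0.5317, and each animal moved in opposite directions in the 2 fractions. Counting errors of the serum ratios were 0.0870 before and 0.0257 after surgery in animal D. In animal E they were 0.0408 and 0.0386. This difference was not tested.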

How the results depend on the processing

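Groups held 3 or 5 libraries, and single libraries of animals C and D set several signs. In serum, the log2 values of miR-451a, miR-144-3p and miR-144-5p were negative under every alternative that gave one, and in EVs over serum those of miR-486-5p were negative under every alternative. Under library totals the median log2 value of all names was −0.88 in serum, against −0.20 with TMM factors, −0.55 against −0.02 in EVs, 1.05 against 0.35 in EVs over serum before surgery, 1.48 against 0.30 after it and 0.48 against 0.26 for the interaction, so that signs of single miRNAs are relative to those centres. A minimum count of 50 removed miR-144-3p or miR-144-5p from some fits, and thinning removed miR-144-3p from EVs against serum after surgery. Causes were not tested.

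In serum after against before surgery, names called were 2 with no filter. miR-486-5p had 0.53 by limma-voom, 0.0750 under library totals, 0.0237 with a minimum count of 50, 0.0514 after thinning and 1.75 with the animal as a replicate block, and with each library left out −0.59 to 0.40. miR-486-3p had 0.47 by limma-voom, 0.0203 under library totals, 0.0507 after thinning, 1.56 with the block and −0.63 to 0.43 with each library left out. In EVs after against before surgery, miR-451a had 0.46 by limma-voom, 1.33 with the block and −2.19 to 1.14 with each library left out, miR-486-5p had −0.16 under library totals and −0.79 to 1.30, and miR-486-3p −0.67 to 1.63.

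In EVs against serum before surgery, names called were 54 by DESeq2, 150 by limma-voom, 56 with no filter, 0 with a minimum count of 50, 57 in 1 fit of all libraries, 0 with the animal as a replicate block, 0 among names above 0 in every library, 4 after thinning and 26 to 89 with each library left out (26 without EVs of animal A, 89 without serum of animal D), of which 0 to 1 were erythroid miRNAs. miR-451a had 0.45 under library totals and −2.76 to 0.76 with each library left out. miR-144-3p had −0.38 by limma-voom, −0.0167 with the block and −0.69 to 1.55, miR-144-5p 0.44 under library totals and −1.07 to 0.27, and miR-486-3p −3.34 to −1.40.

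In EVs against serum after surgery, names called were 41 by DESeq2, 42 by limma-voom and 0 to 251 with each library left out (251 without serum of animal D). miR-451a had −0.14 to 1.38 and miR-144-5p −0.28 to 0.92. For the interaction, names called were 3 by DESeq2 and 0 to 6 with each library left out, miR-486-5p had −0.23 under library totals and −0.56 to 1.57, miR-144-3p −0.37 to 1.97 and miR-486-3p −0.39 to 1.95.

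The log2 ratio of miR-451a over miR-23a-3p in serum was 0.0859 in the pairs of 1 animal. In EVs minus serum before surgery it was 1.95 over miR-30c-5p in place of miR-23a-3p, and −1.26 to 0.19 with each library left out. In EVs before surgery miR-30c-5p had 0 to 111 counts, with a median of 0. The value of 1.95 thus depends on the 0.5 added to counts. miR-486-5p over miR-451a in EVs after minus before surgery was −0.28 to 0.48. miR-144-5p over miR-451a in serum was 0.0487 with 5 added to counts and −0.36 to 0.16 with each library left out, and in EVs minus serum after surgery −0.57 to 0.37. With TMM-scaled values, r was 0.934 for miR-451a with miR-144-5p in serum, 0.563 for miR-451a with miR-486-5p in serum, 0.362 for miR-144-5p with miR-486-5p in serum, 0.911 for miR-451a with miR-144-5p in EVs and 0.773 for miR-144-5p with miR-486-5p in EVs. With totals that leave out the 5 miRNAs, r was 0.0431 for miR-451a with miR-486-5p in serum and 0.832 for miR-451a with miR-144-5p in EVs. The block changed no other call.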
